A study of Mus musculus with 9 samples.

Results

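The ATP-binding cassette (ABC) genes were taken as the probe sets whose single gene symbol in the platform annotation is Abc, a subfamily letter from a to g, a number and at most 1 further letter. This gave 45 genes on 92 probe sets, out of 18193 genes on 34945 probe sets with a single symbol. The rule uses names, not signals. For each gene the brightest probe set on average stood for it, and 33 of the 45 genes passed a filter on low signals and were tested. Expression was measured in BC3H1, a mouse brain tumour cell line with muscle-like properties, on 9 Affymetrix arrays, 3 in each of 3 groups. The resistant cells (RR1) are 1 line obtained from BC3H1 by growth in 1 uM rapamycin for 6 months, and they stayed in 1 uM rapamycin. The sensitive rapamycin cells are the parent BC3H1 given 100 nM rapamycin for 24 h, and the DMSO cells are the parent given the solvent for 24 h. Dose and time of exposure differ between the rapamycin groups, so in either comparison with the resistant cells the line, the long culture and the drug cannot be told apart. Whether the replicates of a group were grown as separate cultures is not stated in the labels, so the replicate error behind the p-values may be technical.

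ABC proteins use ATP to move substrates across membranes, and subfamilies A to D and G are membrane transporters. P-glycoprotein, breast cancer resistance protein and several multidrug resistance proteins of subfamily C export drugs from cells, and rapamycin is a known substrate of P-glycoprotein. Members of subfamilies E and F have the ATPase domains without a membrane part and act on ribosomes and translation. Other members carry sterols and phospholipids, bile components, porphyrins, peroxisomal fatty acids and lysosomal cargo.

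Signals are linear intensities scaled by the authors, and changes are differences of log2(signal + 16) with their standard error (n = 3 arrays per group). This scale understates the change of dim genes. A limma fit over 12715 genes gave the p-values, and a gene was called where the adjusted p (Benjamini-Hochberg) was under 0.05. Levels of different probe sets are not compared, because each has its own brightness. The third DMSO array stood apart: its median signal was 66.0, against 33.3 to 44.2 on the other arrays, and 17.4% of its probe sets lay below 16, against 29.4% to 34.8%. The excess of the 3-prime over the 5-prime Actb control probe set on the log2 scale, a sign of RNA quality, averaged 0.33 in resistant, 0.19 in sensitive rapamycin and 0.17 in DMSO cells, and its part in the results below was not tested. Marker genes moved with the resistant group as well. Of all tested genes 20.4% rose and 15.2% fell by rapamycin in sensitive cells. In the resistant cells 25.9% rose and 25.8% fell against DMSO cells, and 26.4% and 30.1% against sensitive rapamycin cells. Of 7 tested muscle markers 6 fell and 1, Myog, rose in resistant against DMSO cells. Myog averaged 98.9 in resistant, 17.8 in sensitive rapamycin and 6.50 in DMSO cells, and passed the filter through its resistant arrays. Summed muscle signals were 7915 to 9697 in resistant, 28685 to 29015 in sensitive rapamycin and 23448 to 31571 in DMSO cells. Myh11 lay below the filter limit in every group. Of 4 fibroblast markers 3 fell in the resistant cells against either group, with summed signals of 3149.8 to 4537, 13435 to 16215 and 9912 to 12565 in the same order of groups. Endothelial markers, of interest because brain capillaries carry P-glycoprotein, summed to 86.2 to 123, 82.2 to 133 and 72.7 to 214, and 1 of the 5 (Kdr) passed the filter. Of 3 tested neuron markers 1, Tubb3, fell in the resistant cells against either group (-0.59 and -0.55), with summed signals of 175 to 208, 238 to 249 and 230.2 to 529. Of 3 tested epithelial markers 1, Epcam, fell with rapamycin in sensitive cells (-1.21), and the sums were 118 to 173, 101 to 218 and 190.6 to 422. No macrophage marker of 3 tested was called, and no hepatocyte marker passed the filter. Whether the change of these markers has a part in the ABC results was not tested.

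Across the family, 24 h of rapamycin in sensitive cells raised 7 and lowered 7 of the 33 tested genes. Genes of lipid transport (Abca2, Abca3, Abca5, Abca7) rose, with Abcb10, Abcc1 and Abcc5, and Abcb1b, Abcb6, Abcc4, Abcg2 and the translation genes Abce1, Abcf1 and Abcf2 fell. These 14 genes are 42.4% of the 33 tested members, against 35.6% of all tested genes called. Over all tested genes 20.4% rose and 15.2% fell, and the ABC shares were 21.2% and 21.2%, so the rises were near the background. By array values alone, 8 ABC genes lay wholly above and 9 wholly below the DMSO arrays (24.2% and 27.3%, against 25.1% and 18.1% of all genes). Changes of at least 2-fold were called for 4 genes (12.1%, against 6.04%), Abca2, Abca3, Abca7 and Abcb1b. In the resistant cells against DMSO cells 12 ABC genes were called (36.4%, against 51.8% of all genes). Of these 9 rose (27.3%, against 25.9%) and 3 fell (9.09%, against 25.8%). The fallen genes were Abcb1a, Abcb1b and Abcg3, and Abcb1a and Abcg3 passed the filter through their sensitive arrays. Here 9 genes lay wholly above and 5 wholly below the DMSO arrays (27.3% and 15.2%, against 28.9% and 29.6%), and Abcb1a and Abcg3 were called with at least a 2-fold change (6.06%, against 15.4%). Between the rapamycin groups 16 were called (48.5%, against 56.5%), of which 9 were higher (27.3%, against 26.4%) and 7 lower (21.2%, against 30.1%) in the resistant cells. Without overlap 10 were higher and 8 lower (30.3% and 24.2%, against 30.1% and 35.3%), and 5 were called with at least a 2-fold change (15.2%, against 24.0%), Abca3, Abcb1a, Abcb6, Abce1 and Abcf2. The median log2 change of the 33 was -0.05, -0.05 and -0.10 in these 3 comparisons, and that of all tested genes 0.03, -0.07 and -0.08. The comparisons share arrays, so the same array enters more than 1 of these counts. Without the third DMSO array the counts were 5 higher and 7 lower for rapamycin in sensitive cells, and 9 higher and 3 lower for the resistant cells against DMSO cells. Of the 14, 12 and 16 called genes, 9, 7 and 10 had a further probe set above the filter, and for 3, 6 and 7 of these another probe set was called the same way.

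**Figure D1:**
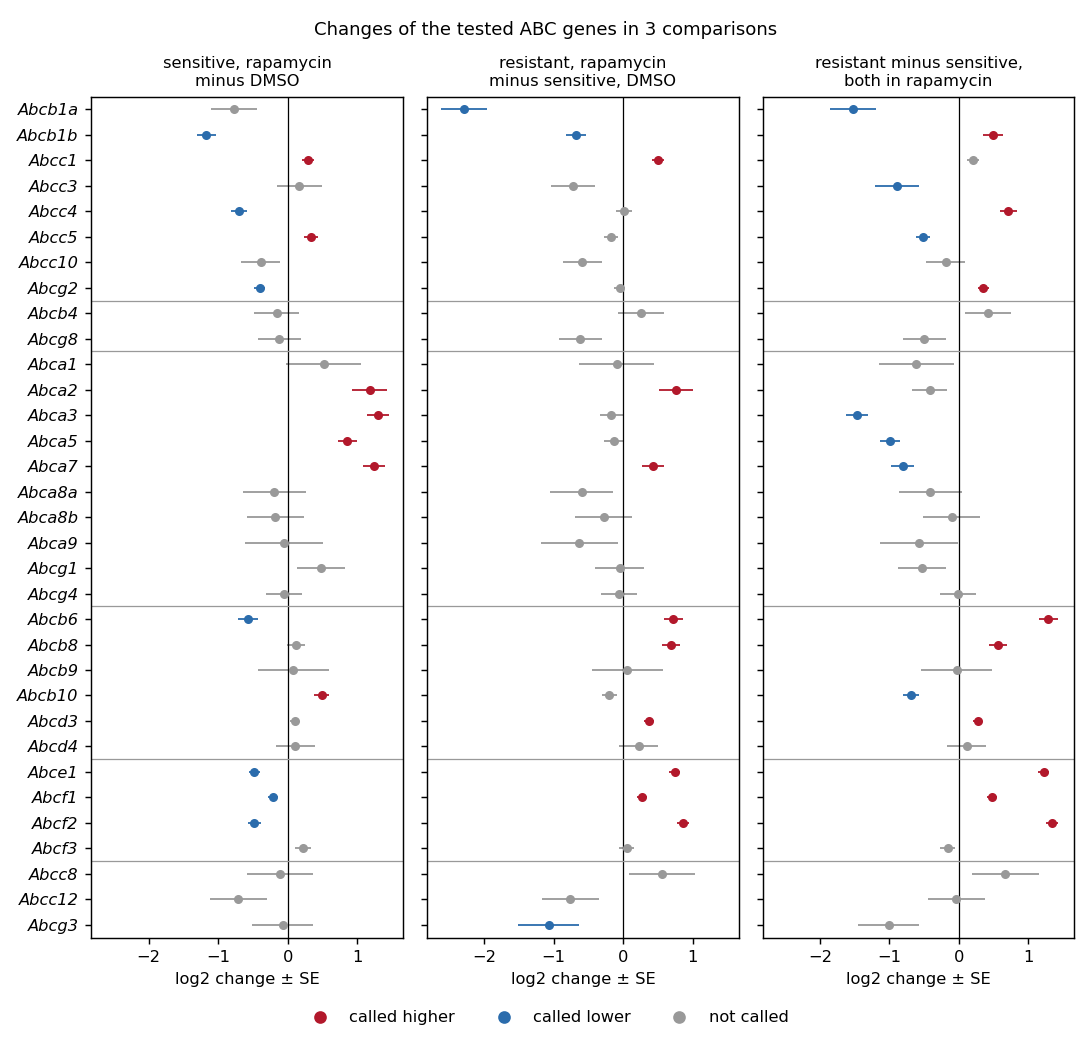
Log2 change of log2(signal + 16) with its standard error for the 33 tested ABC genes in 3 comparisons of 3 arrays each; lines divide the drug efflux, bile, sterol and lipid, organelle, translation and remaining genes. Abcb1a has the lowest values in both panels of the resistant cells (-2.29 and -1.52), and Abce1 and Abcf2 the highest changes with Abcb6 in the right panel.

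**Figure D2:**
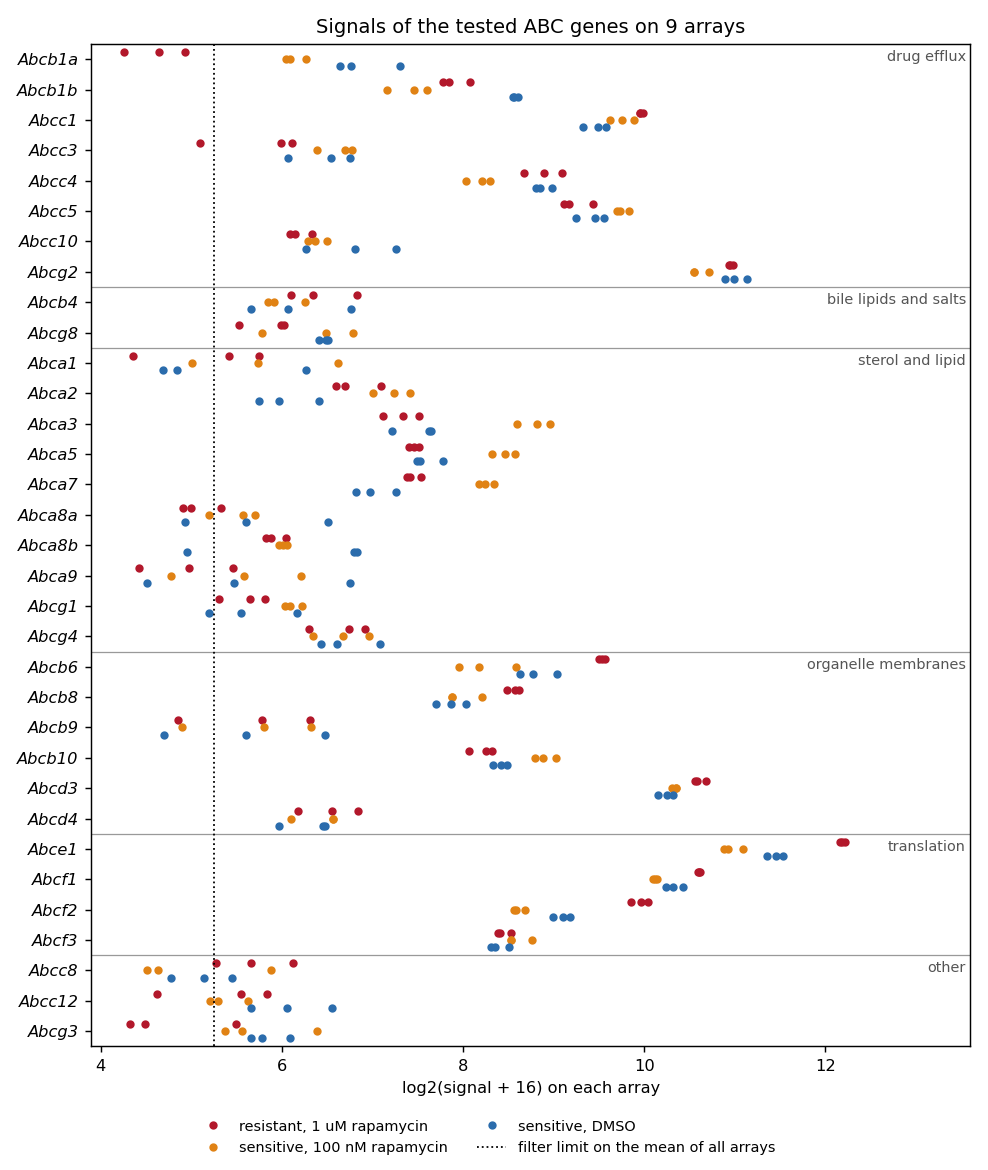
Signal of each tested ABC gene on every array as log2(signal + 16), by group, with the limit of the filter (a signal of 22.2) as a dotted line. Positions of different genes on the axis cannot be compared; within a row, the resistant arrays of Abcb1a lie below the limit and the sensitive rapamycin arrays of Abca3, Abca5 and Abca7 lie apart from both other groups.

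Among drug exporters, both P-glycoprotein genes had lower signals in resistant cells than in DMSO cells. Abcb1a and Abcb1b encode the P-glycoproteins of the mouse, which in humans has a single gene. Abcb1a had signals of 3.08, 14.5 and 9.01 in resistant cells, 52.3, 60.9 and 50.1 in sensitive rapamycin cells and 142, 84.1 and 93.0 in DMSO cells. The 3 groups did not overlap, and all resistant arrays lay below the filter limit of 22.2, where the pseudocount limits the measured change. Abcb1a passed the filter through its sensitive arrays, so its calls in the resistant cells are descriptions only. The log2 change of the resistant cells was -2.29 ± 0.33 against DMSO cells (adjusted p = 1.53e-05) and -1.52 ± 0.33 against the sensitive rapamycin cells (adjusted p = 0.000709). For rapamycin in the sensitive cells it was -0.77 ± 0.33, with a 95% interval of -1.47 to -0.07, and did not pass (adjusted p = 0.0839). With a pseudocount of 4 the changes of the resistant cells were larger, at -3.17 against DMSO cells and -2.28 against sensitive rapamycin cells. The change in the sensitive cells passed with a pseudocount of 64 (adjusted p = 0.0368), with its probe sets averaged (0.0384) and without a variance trend (0.0285). The other Abcb1a probe set gave signals of 1.02, 1.87 and 11.0 in resistant cells, 33.3, 15.3 and 35.2 in sensitive rapamycin cells and 57.7, 87.0 and 72.5 in DMSO cells. It showed the same order of groups without overlap, and was called lower in both comparisons of the resistant cells (-2.12 ± 0.39 and -1.09 ± 0.39). Its resistant arrays also lay below 22.2 and it passed the filter through its sensitive arrays, so these calls are descriptions only.

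Abcb1b followed another order. Its brighter probe set had signals of 254, 213 and 203 in resistant cells, 159.7, 128 and 178 in sensitive rapamycin cells and 363, 373 and 359 in DMSO cells. The resistant arrays lay between the other groups, with no overlap. Abcb1b fell by rapamycin in sensitive cells (-1.17 ± 0.14, adjusted p = 5.29e-06) and was lower in resistant than in DMSO cells (-0.68 ± 0.14, adjusted p = 0.000686). Relative to the sensitive rapamycin cells it was higher in the resistant cells (0.49 ± 0.14, adjusted p = 0.00712), whereas Abcb1a was lower there. The second Abcb1b probe set was dim, with 17.1, 37.2 and 36.9 in resistant cells, 41.5, 7.78 and 23.9 in sensitive rapamycin cells and 7.09, 38.4 and 18.7 in DMSO cells. Its groups overlapped throughout, none of its changes passed, and with the mean of both probe sets Abcb1b was called in none of the 3 comparisons (adjusted p = 0.109, 0.626 and 0.208). The genes are close paralogs, and whether a probe set also binds the other transcript was not tested.

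**Figure D3:**
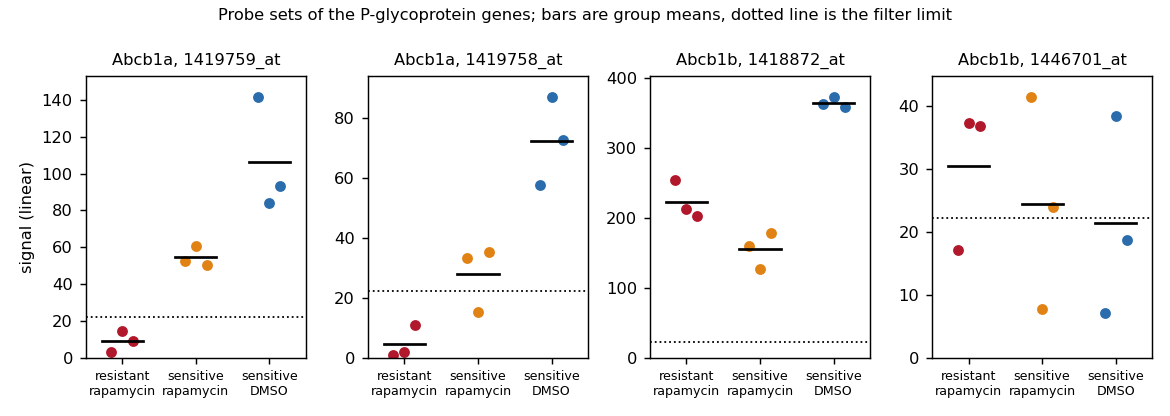
Linear signals of the 2 probe sets each of Abcb1a and Abcb1b on the 9 arrays; bars are group means, the dotted line is the filter limit of 22.2, and each panel has its own axis from 0. Both Abcb1a probe sets and the brighter Abcb1b probe set separate the groups, and the dim Abcb1b probe set does not.

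The start regions of the paralogs differ in sequence, and are shown because the P-glycoprotein genes moved apart between the rapamycin groups. Each is the RefSeq window on the GRCm38.p6 assembly from 250 bases before to 50 bases after the gene start, on the gene's strand. The Abcb1a window is chr5:8566841-8567140 (+) and the Abcb1b window chr5:8797897-8798196 (+). Capitals mark CCAAT, read as ATTGG on the other strand, the sequence recognised by the factor NF-Y.
Abcb1a: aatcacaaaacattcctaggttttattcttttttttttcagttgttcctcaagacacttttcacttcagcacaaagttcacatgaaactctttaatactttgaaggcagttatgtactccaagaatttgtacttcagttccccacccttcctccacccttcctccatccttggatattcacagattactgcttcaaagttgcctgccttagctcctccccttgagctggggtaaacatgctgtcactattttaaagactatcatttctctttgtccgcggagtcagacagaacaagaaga
Abcb1b: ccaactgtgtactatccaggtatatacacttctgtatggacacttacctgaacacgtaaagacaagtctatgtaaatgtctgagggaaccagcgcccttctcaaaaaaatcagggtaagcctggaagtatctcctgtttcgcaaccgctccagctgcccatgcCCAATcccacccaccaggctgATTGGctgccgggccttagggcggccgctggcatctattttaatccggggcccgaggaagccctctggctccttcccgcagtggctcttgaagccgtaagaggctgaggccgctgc
The Abcb1a window held none of the motifs searched, and Abcb1b held CCAAT at 2 places, 1 on either strand. Its GC content was 55.0% with 12 CpG dinucleotides, against 40.3% and 2 CpG in Abcb1a. Of the 45 ABC genes 35 had an entry in the RefSeq table, with 42 windows. CCAAT on either strand was found in 15 of the 42 windows (35.7%), against 37.4% of all 32851 windows. The E-box CACGTG was found in 5 of 42 (11.9%), those of Abca1, Abca8a, Abca8b, Abcc4 and Abcf1, against 7.15% of all windows. The direct repeat of AGGTCA with a spacer of 4 bases, the form read by the sterol-sensing LXR receptors, was found in none of the ABC windows and in 0.0152% of all windows. Only the exact repeat was searched, which is too rare for 42 windows to tell whether LXR sites are absent. Matches describe letters only.

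Abcb1a, Abcb1b and Abcb4 lie next to each other on chromosome 5, and the genes around them did not share one pattern. Abcb4, which carries phosphatidylcholine into bile, had signals of 97.8, 65.2 and 52.7 in resistant cells, 44.5, 41.4 and 60.2 in sensitive rapamycin cells and 34.7, 51.3 and 92.6 in DMSO cells, and passed in no comparison. Of the 4 protein-coding genes on either side 5 were tested, Dbf4, Slc25a40, Crot, Tmem243 and Dmtf1. In resistant against DMSO cells Tmem243 (1.39 ± 0.16), Dbf4 (0.95 ± 0.08) and Dmtf1 (0.77 ± 0.11) were higher. Crot, a peroxisomal carnitine acyltransferase, was lower (-0.56 ± 0.09), and Slc25a40 did not pass (-0.03 ± 0.12, adjusted p = 0.866).

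**Figure D4:**
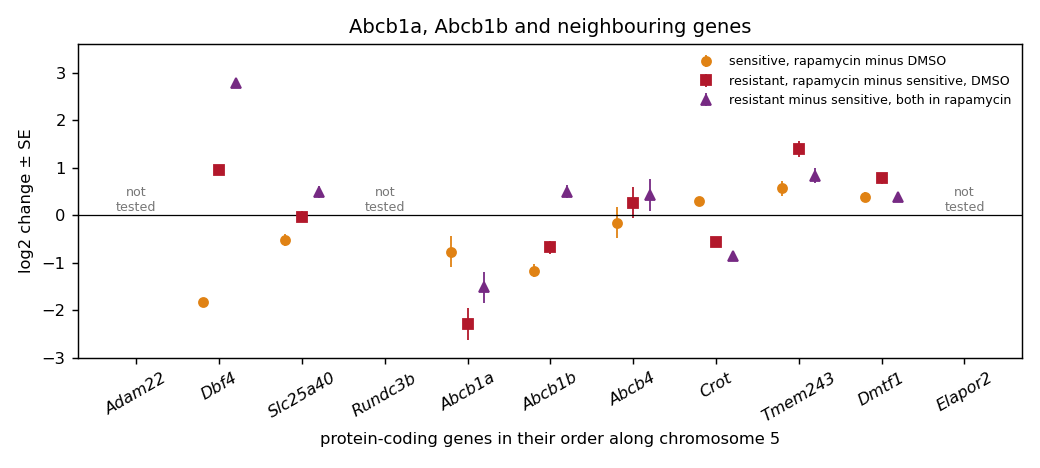
Log2 change with its standard error for Abcb1a, Abcb1b, Abcb4 and 4 protein-coding genes on either side, in their order along chromosome 5, with 1 symbol per comparison. Abcb1a has the lowest value in resistant against DMSO cells (-2.29), and Tmem243, on the far side of Abcb4, is among the higher ones (1.39).

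Breast cancer resistance protein, encoded by Abcg2, fell with rapamycin in sensitive cells. Its signals were 1962, 1999 and 1942 in resistant cells, 1662, 1481 and 1488 in sensitive rapamycin cells and 2228, 2017 and 1882 in DMSO cells. The sensitive rapamycin arrays lay below all others, and the resistant and DMSO arrays overlapped. The log2 change was -0.40 ± 0.08 for rapamycin in sensitive cells (adjusted p = 0.000564) and 0.35 ± 0.08 for resistant against sensitive rapamycin cells (adjusted p = 0.000817). Against DMSO cells the resistant cells measured -0.05 ± 0.08 (adjusted p = 0.627), with a 95% interval of -0.21 to 0.11. Abcc4, an exporter of cyclic nucleotides and nucleotide analogues, was ordered alike, at 393, 528 and 461 in resistant cells, 299, 280.3 and 245 in sensitive rapamycin cells and 445, 488 and 430.2 in DMSO cells. Its sensitive rapamycin arrays were again the lowest. Abcc4 fell by rapamycin in sensitive cells (-0.70 ± 0.12, adjusted p = 0.000184) and was higher in the resistant than in the sensitive rapamycin cells (0.71 ± 0.12, adjusted p = 5.64e-05). Abcc4 in resistant against DMSO cells measured 0.01 ± 0.12, with an interval of -0.24 to 0.27.

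Abcc1, the exporter of glutathione conjugates known as multidrug resistance protein 1, was highest in the resistant cells. Signals of Abcc1 were 974, 998 and 975 in resistant cells, 934, 775 and 850.5 in sensitive rapamycin cells and 704, 749.7 and 626 in DMSO cells, and no groups overlapped. It rose in resistant against DMSO cells (0.50 ± 0.09, adjusted p = 0.000136), and its second probe set was called higher there too (0.53 ± 0.18), with arrays that overlapped. The rise by rapamycin in sensitive cells (0.29 ± 0.09, adjusted p = 0.0153) was lost without the first sensitive rapamycin array (adjusted p = 0.0734), without the third DMSO array (0.0555), with arrays centred on the 75th percentile (0.0565) and without a variance trend (0.0574). The difference of 0.20 ± 0.09 between the rapamycin groups did not pass (adjusted p = 0.0604), but passed without the first sensitive rapamycin array (adjusted p = 0.0200) or the third DMSO array (0.0325), with centring on the 75th percentile (0.00763), a filter at the 60th percentile (0.0479), its probe sets averaged (0.0479) and the 2 groups alone (0.0399).

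Abcc5, which exports cyclic nucleotides and other organic anions, was lower in resistant than in sensitive rapamycin cells. Its brightest of 10 probe sets had 675, 558 and 539 in resistant cells, 893, 818 and 836 in sensitive rapamycin cells and 737, 685 and 591 in DMSO cells. The sensitive rapamycin arrays lay above all others. Abcc5 changed by -0.52 ± 0.10 between the rapamycin groups (adjusted p = 0.000259) and rose by rapamycin in sensitive cells (0.34 ± 0.10, adjusted p = 0.0148). That rise was lost without the first sensitive rapamycin array (adjusted p = 0.0569), without the third DMSO array (0.0611), without a variance trend (0.0640) and with its probe sets averaged (0.268). In resistant against DMSO cells the value was -0.18 ± 0.10 (adjusted p = 0.15), and it passed without the first resistant array (0.0379), without the third DMSO array (0.0342) and with its probe sets averaged, where it was -0.62 (adjusted p = 0.00105). Most other Abcc5 probe sets above the filter were called lower there, at -1.25 ± 0.30, -0.96 ± 0.32, -0.69 ± 0.15, -0.53 ± 0.18 and -0.51 ± 0.14. The rest, at -0.66 ± 0.28 and -0.22 ± 0.32, were not called. In the counts of exporters Abcc5 stands by its brightest probe set, which was not called there.

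Of the remaining exporters, Abcc3, which carries glucuronides and bile salts, had 47.5, 53.0 and 18.2 in resistant cells, 68.1, 93.4 and 87.5 in sensitive rapamycin cells and 51.3, 77.0 and 92.0 in DMSO cells. It was lower in the resistant than in the sensitive rapamycin cells (-0.89 ± 0.32, adjusted p = 0.0239), which was lost without the third resistant array (adjusted p = 0.148), without the second (0.0799) or the third (0.0705) sensitive rapamycin array and under quantile normalization (0.0669). Against DMSO cells Abcc3 measured -0.72 ± 0.32 (adjusted p = 0.0671), which passed without the second resistant (adjusted p = 0.0475) or the first DMSO array (0.0350). Abcc10 ran from 52.1 to 137 over the 9 arrays and passed in no comparison, and Abcc2 was below the filter. Counted together, of 8 tested exporters 2 rose and 3 fell by rapamycin in sensitive cells, 1 rose and 2 fell in resistant against DMSO cells, and 3 were higher and 3 lower between the rapamycin groups. The shares over all genes were 20.4% and 15.2%, 25.9% and 25.8%, and 26.4% and 30.1% in the same comparisons. Above its share lay the count of 3 falls by rapamycin in sensitive cells. The count of 1 rise in resistant against DMSO cells lay below its share. Other counts were nearer to theirs, and 8 genes give only coarse shares.

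Rapamycin in sensitive cells raised 4 of 10 tested genes of sterol and lipid transport and lowered none, where 20.4% of all tested genes rose and 15.2% fell. Between the rapamycin groups 3 of these 10 were lower and none higher in the resistant cells (all genes 30.1% and 26.4%). In resistant against DMSO cells 2 were higher and none lower (all genes 25.9% and 25.8%). The 3 lower genes in the former and the 2 higher genes in the latter comparison are near these shares. Abca3, which loads phospholipid into the lamellar bodies of lung surfactant cells, had signals of 167, 145 and 123 in resistant cells, 483, 372 and 433 in sensitive rapamycin cells and 182, 184 and 133 in DMSO cells. Its sensitive rapamycin arrays lay above both other groups, which overlapped. Abca3 rose by 1.30 ± 0.16 with rapamycin in sensitive cells (adjusted p = 6.49e-06) and was lower in resistant than in sensitive rapamycin cells (-1.47 ± 0.16, adjusted p = 3.87e-07). Against DMSO cells the resistant cells measured -0.17 ± 0.16 (adjusted p = 0.398), with a 95% interval of -0.52 to 0.17. Its second probe set was called in the same 2 comparisons (0.88 ± 0.25 and -1.27 ± 0.25). Abca5, a lysosomal membrane protein, had 154, 160.5 and 167 in resistant cells, 365, 338 and 305 in sensitive rapamycin cells and 164, 203 and 168 in DMSO cells. The sensitive rapamycin arrays again stood above the rest, with changes of 0.86 ± 0.14 against DMSO cells (adjusted p = 0.000109) and -0.99 ± 0.14 for resistant against sensitive rapamycin cells (adjusted p = 7.34e-06). A second, dim Abca5 probe set passed in neither.

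Abca7, which moves phospholipids and acts in phagocytosis, had signals of 169.9, 150.5 and 154 in resistant cells, 274, 307 and 287 in sensitive rapamycin cells and 96.7, 137 and 110.1 in DMSO cells. No groups overlapped, and the resistant arrays lay between the others. Abca7 rose by rapamycin in sensitive cells (1.24 ± 0.16, adjusted p = 8.74e-06) and was lower in the resistant than in the sensitive rapamycin cells (-0.81 ± 0.16, adjusted p = 0.000257). Its rise in resistant against DMSO cells (0.43 ± 0.16, adjusted p = 0.0328) was lost without the first (adjusted p = 0.109), second (0.0551) or the third (0.0647) resistant array, without the first DMSO array (0.119) and with the 2 groups alone (0.0792). Abca2, a transporter of endosomes and lysosomes abundant in brain, had 87.8, 121 and 80.7 in resistant cells, 112, 135 and 155 in sensitive rapamycin cells and 46.4, 37.9 and 69.0 in DMSO cells. Both rapamycin groups lay above the DMSO arrays and overlapped with each other. Abca2 rose by rapamycin in sensitive cells (1.18 ± 0.25, adjusted p = 0.00117). It also rose in resistant against DMSO cells (0.76 ± 0.25, adjusted p = 0.0169), a call that did not hold when the second resistant array (adjusted p = 0.100) or the second DMSO array (0.0626) was left out. The difference between the rapamycin groups was -0.42 ± 0.25 (adjusted p = 0.165).

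**Figure D5:**
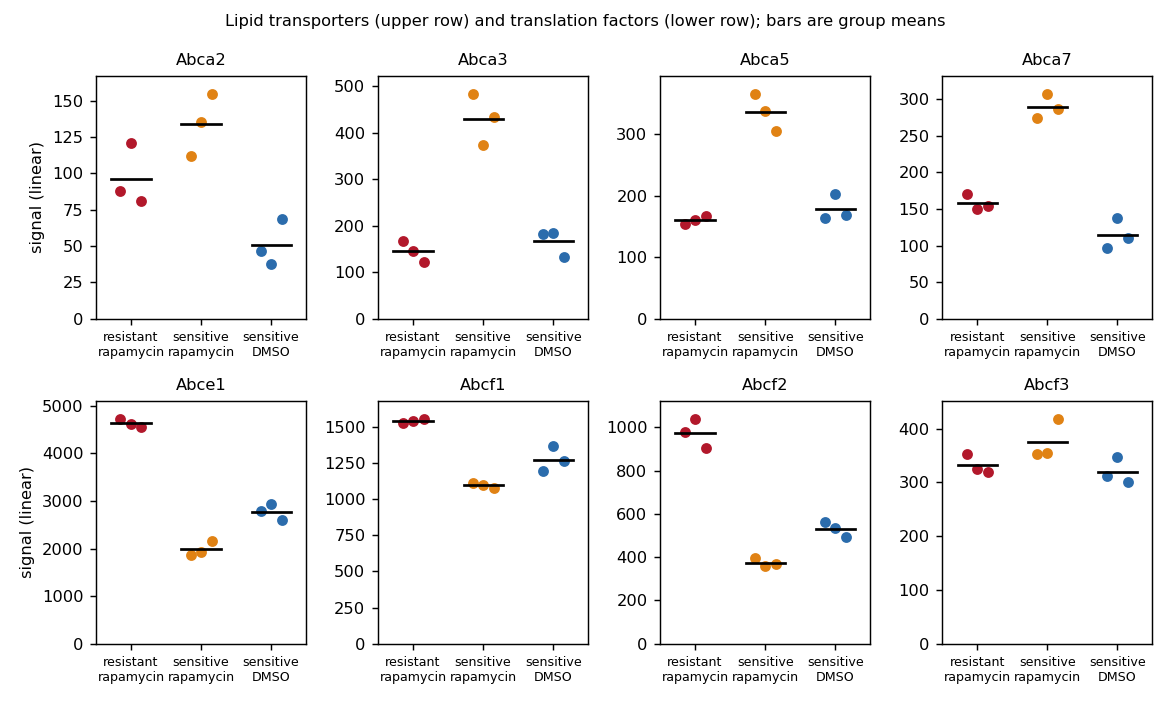
Linear signals of 4 lipid transporters and 4 translation factors on the 9 arrays; bars are group means and every axis starts at 0. In the upper row the sensitive rapamycin means are the highest; in the lower row the resistant means of Abce1, Abcf1 and Abcf2 are the highest and their sensitive rapamycin means the lowest.

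The main cholesterol exporters were dim and passed in no comparison. Abca1, which passes cholesterol to apolipoprotein A-I, had 37.6, 4.52 and 26.9 in resistant cells, 16.3, 37.3 and 82.3 in sensitive rapamycin cells and 9.72, 12.8 and 60.9 in DMSO cells. Abcg1, which passes it to high-density lipoprotein, had 40.4, 34.2 and 23.7 in resistant cells, 52.3, 49.6 and 58.6 in sensitive rapamycin cells and 56.1, 30.8 and 20.7 in DMSO cells. The groups of both genes overlapped, apart from the rapamycin groups of Abcg1. Their 95% intervals for rapamycin in sensitive cells were -0.62 to 1.67 and -0.27 to 1.23, and that of Abca1 holds a change as large as the one of Abca3. Abca5 lies in a row with Abca6, Abca8a, Abca8b and Abca9 on chromosome 11. Abca8a, Abca8b and Abca9 passed in no comparison, and Abca6 was below the filter. Abcg4 (62.9 to 120 over the 9 arrays) and the bile gene Abcg8 (30.3 to 94.1) likewise did not pass.

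Transporters of mitochondria and other organelles moved in different directions. Of 6 tested, 1 rose and 1 fell by rapamycin in sensitive cells, 3 rose and none fell in resistant against DMSO cells, and 3 were higher and 1 lower between the rapamycin groups. The first of these counts is at the background of 20.4% and 15.2%, and the others stand beside 25.9% and 25.8%, and 26.4% and 30.1%, of all genes. Abcb6, a porphyrin transporter, had signals of 707, 726 and 742 in resistant cells, 233, 368 and 274 in sensitive rapamycin cells and 510.0, 420.1 and 381 in DMSO cells, with no overlap. It fell by rapamycin in sensitive cells (-0.57 ± 0.14, adjusted p = 0.00343) and was higher in the resistant cells, by 0.72 ± 0.14 against DMSO cells (adjusted p = 0.000283) and 1.29 ± 0.14 against sensitive rapamycin cells (adjusted p = 2.74e-07). Abcb10, a protein of the inner mitochondrial membrane linked to haem synthesis, had 303, 253 and 288 in resistant cells, 506, 426 and 457 in sensitive rapamycin cells and 343, 306 and 327 in DMSO cells. Here the order was the opposite, with the sensitive rapamycin arrays highest and the resistant arrays lowest. Abcb10 rose by rapamycin in sensitive cells (0.49 ± 0.11, adjusted p = 0.00224, and 0.0792 with its probe sets averaged). It was lower in the resistant than in the sensitive rapamycin cells (-0.69 ± 0.11, adjusted p = 3.79e-05) and did not pass against DMSO cells (-0.20 ± 0.11, adjusted p = 0.15).

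Abcb8, another mitochondrial transporter, had 365, 376 and 343 in resistant cells, 219, 219 and 279.7 in sensitive rapamycin cells and 217, 247 and 193 in DMSO cells. The resistant arrays lay above both other groups, which overlapped. It rose in the resistant cells against DMSO cells (0.69 ± 0.13, adjusted p = 0.000318) and against sensitive rapamycin cells (0.57 ± 0.13, adjusted p = 0.00134). The dimmer Abcb8 probe set was also called higher against DMSO cells (0.96 ± 0.24). Against sensitive rapamycin cells it did not pass (0.18 ± 0.24, adjusted p = 0.578), and its arrays overlapped. The probe sets of Abcb8 disagreed for rapamycin in sensitive cells too, at 0.12 ± 0.13 (adjusted p = 0.546) and 0.78 ± 0.24 (adjusted p = 0.0227), and their mean passed (0.45, adjusted p = 0.0262). Abcd3, the peroxisomal protein PMP70, averaged 1548 ± 65.7 in resistant cells, 1278 ± 20.3 in sensitive rapamycin cells and 1195 ± 70.5 in DMSO cells (SD, n = 3 each). Abcd3 was higher in the resistant cells in both comparisons, by 0.37 ± 0.07 (adjusted p = 0.000325) and 0.27 ± 0.07 (adjusted p = 0.00353). The lysosomal members Abcb9, a peptide transporter, and Abcd4, which acts in cobalamin export, passed in no comparison.

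The translation members Abce1, Abcf1 and Abcf2 fell with rapamycin in sensitive cells and were highest in the resistant cells. Abce1, which splits ribosomes into subunits for recycling, had signals of 4726, 4618 and 4545 in resistant cells, 1866, 1934 and 2166 in sensitive rapamycin cells and 2783, 2947 and 2593 in DMSO cells. No groups overlapped. Its log2 change was -0.48 ± 0.08 for rapamycin in sensitive cells (adjusted p = 9.18e-05), 0.74 ± 0.08 for resistant against DMSO cells (adjusted p = 3.05e-07) and 1.22 ± 0.08 for resistant against sensitive rapamycin cells (adjusted p = 2.4e-10). A second bright probe set gave -0.52 ± 0.07, 0.79 ± 0.07 and 1.31 ± 0.07. The third, with 176, 163 and 219 in resistant cells, 103, 74.6 and 63.8 in sensitive rapamycin cells and 19.1, 55.9 and 34.3 in DMSO cells, was called higher for rapamycin in sensitive cells (0.92 ± 0.28), and with the mean of the 3 the fall was lost (-0.03, adjusted p = 0.876).

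Abcf2 was ordered as Abce1 was, with 979, 1039 and 906 in resistant cells, 396, 361 and 368 in sensitive rapamycin cells and 564, 535 and 494 in DMSO cells. No arrays of different groups overlapped. It fell by rapamycin in sensitive cells (-0.48 ± 0.09, adjusted p = 0.000386, and 0.181 with its probe sets averaged). In the resistant cells it rose by 0.86 ± 0.09 against DMSO cells (adjusted p = 3.61e-07) and by 1.34 ± 0.09 against sensitive rapamycin cells (adjusted p = 5.86e-10). Abcf1, which binds the initiation factor eIF2 and ribosomes, had 1525, 1541 and 1555 in resistant cells, 1112, 1099 and 1079.8 in sensitive rapamycin cells and 1192, 1364 and 1264 in DMSO cells. Its groups did not overlap either, with smaller differences of 0.27 ± 0.07 for resistant against DMSO cells (adjusted p = 0.00381) and 0.48 ± 0.07 between the rapamycin groups (adjusted p = 1.34e-05, and 0.0729 with its 6 probe sets averaged). The fall by rapamycin in sensitive cells (-0.21 ± 0.07, adjusted p = 0.0296) was lost without the second (adjusted p = 0.0608) or the third (0.0806) sensitive rapamycin array, without the second DMSO array (0.136), without a variance trend (0.0696) and with the 2 groups alone (0.0675). With its probe sets averaged that change was 0.13 (adjusted p = 0.550). Abcf3 had 353, 325 and 319 in resistant cells, 353, 355 and 418 in sensitive rapamycin cells and 311, 347 and 301 in DMSO cells, and passed in no comparison (adjusted p = 0.148, 0.721 and 0.233). A dimmer Abcf3 probe set was called lower in resistant than in sensitive rapamycin cells (-0.70 ± 0.26, adjusted p = 0.0352).

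The windows around the starts of Abce1 and Abcf2, shown because these genes moved together, each held CCAAT once, on the strand opposite to the gene and printed as ATTGG in capitals. The Abce1 window is chr8:79711691-79711990 (-) and the Abcf2 window chr5:24577418-24577717 (-) on GRCm38.p6, from RefSeq, both written on the gene's strand. RefSeq lists 2 windows for Abcf2, and the one shown has the match after the start.
Abce1: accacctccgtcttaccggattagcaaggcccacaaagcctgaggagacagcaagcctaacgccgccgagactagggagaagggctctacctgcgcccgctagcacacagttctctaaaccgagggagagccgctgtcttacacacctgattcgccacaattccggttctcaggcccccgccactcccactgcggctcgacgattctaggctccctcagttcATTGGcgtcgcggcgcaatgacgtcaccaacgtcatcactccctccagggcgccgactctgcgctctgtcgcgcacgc
Abcf2: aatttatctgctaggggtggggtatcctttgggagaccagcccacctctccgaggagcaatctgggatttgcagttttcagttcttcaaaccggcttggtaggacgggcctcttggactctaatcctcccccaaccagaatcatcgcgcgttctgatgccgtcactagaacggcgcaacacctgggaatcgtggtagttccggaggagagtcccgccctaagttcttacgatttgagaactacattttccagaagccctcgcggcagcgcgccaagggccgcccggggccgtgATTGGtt
Neither held CACGTG, which was found in the Abcf1 window, and Abcf3 held none of the 3 motifs. Abcf1, whose groups had the same order, held no CCAAT in its window. CCAAT was found in 37.4% of all windows, and any part of it in these changes was not tested. The GC content was 61.7% in Abce1 and 56.3% in Abcf2.

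The other tested members were dim. Abcg3 had 4.03, 6.47 and 28.9 in resistant cells, 67.6, 31.3 and 25.5 in sensitive rapamycin cells and 38.8, 34.6 and 52.0 in DMSO cells. It was lower in resistant than in DMSO cells (-1.07 ± 0.44, adjusted p = 0.0494), but the call was lost without any 1 array other than the third resistant one (adjusted p = 0.0529 to 0.173). The call was also lost with a pseudocount of 64, with centring on the 75th percentile, under quantile normalization and with the 2 groups alone (adjusted p = 0.0777, 0.0710, 0.112 and 0.0639). The resistant minus sensitive rapamycin difference was -1.01 ± 0.44 (adjusted p = 0.0606), and passed without the third resistant array (adjusted p = 0.0267), without the third DMSO array (0.0403), with a pseudocount of 4 (0.0459) and without a variance trend (0.0425). Abcc8, the sulfonylurea receptor of pancreatic beta cells, ran from 6.82 to 53.8 and Abcc12 from 8.59 to 77.7 over the 9 arrays, and neither passed. In all, 14 of the 33 tested genes were called in no comparison. The 12 members below the filter were Abca4, Abca6, Abca12, Abca13, Abca14, Abca16, Abcb11, Abcc2, Abcc6, Abcc9, Abcd2 and Abcg5. Their signals lay between 0.674 and 79.3, and the highest array was the third DMSO array for 4 of them.

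Tap1 and Tap2, the ABC peptide transporters of antigen presentation, fall outside the symbol rule. Tap2 had 9.22, 8.96 and 16.7 in resistant cells, 486, 445 and 420.0 in sensitive rapamycin cells and 263, 185 and 247 in DMSO cells, with no overlap. Tap1 had 12.9, 14.8 and 6.56 in resistant cells, 190.3, 110.1 and 171 in sensitive rapamycin cells and 134, 121 and 125 in DMSO cells. Both were below the filter limit on every resistant array and passed the filter through the sensitive arrays. Against DMSO cells Tap2 measured -3.16 ± 0.19 and Tap1 -2.39 ± 0.27 (limma adjusted p = 4.01e-10 and 7.3e-07), which are descriptions only. Rapamycin in sensitive cells raised Tap2 (0.93 ± 0.19, adjusted p = 0.00112), and Tap1 did not pass (0.25 ± 0.27, adjusted p = 0.516). The chloride channel gene Cftr was below the filter.

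Genes that act with the transporters were counted in the same fit, beside the shares of all genes. Those called higher and lower were 20.4% and 15.2%, 25.9% and 25.8%, and 26.4% and 30.1% in the 3 comparisons. Of 11 tested genes of ribosome recycling and eIF2, partners of Abce1 and Abcf1, 4 fell and none rose by rapamycin in sensitive cells. In resistant against DMSO cells 7 of them rose and 2 fell, and between the rapamycin groups 9 were higher and 1 lower, with medians of -0.19, 0.32 and 0.61. For rapamycin in sensitive cells Denr (-0.48), Gspt1 (-0.41), Eif2s2 (-0.39) and Eif2s3x (-0.23) fell. The 4 largest called changes in the resistant cells were rises of Gcn1, Gspt1, Eif5 and Denr in both comparisons (0.97, 0.75, 0.57 and 0.50 against DMSO cells, 0.76, 1.16, 0.77 and 0.99 against sensitive rapamycin cells). Haem and iron-sulphur genes, partners of Abcb6, Abcb8 and Abcb10, rose in 9 and fell in 1 of 13 in resistant against DMSO cells (median 0.49). Ferrochelatase, Fech, was the fall (-1.13 ± 0.08), and Nfs1 (0.72 ± 0.08), Gfer (0.71 ± 0.08) and Glrx5 (0.69 ± 0.09) had the largest rises. For rapamycin in sensitive cells 5 of the 13 rose and 3 fell. The largest change was the fall of Alad, an enzyme of haem synthesis, which averaged 799 ± 68.6 in sensitive rapamycin cells and 1617 ± 123 in DMSO cells (SD, n = 3 each; limma adjusted p = 3.14e-08), followed by Iscu (0.79 ± 0.09), Cpox (-0.73 ± 0.13) and Uros (0.69 ± 0.12). For resistant against sensitive rapamycin cells 7 of the 13 were higher and 1 lower, with Fech at -1.36 ± 0.08, Alad at 1.25 ± 0.08, Cpox at 1.22 ± 0.13 and Glrx5 at 1.18 ± 0.09.

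For the next 2 lists the shares of all genes higher and lower were 20.4% and 15.2%, 25.9% and 25.8%, and 26.4% and 30.1%. Among 13 sterol efflux and LXR partners 4 rose and 2 fell by rapamycin in sensitive cells, led by Npc2 (0.72 ± 0.08), Stard4 (-0.69 ± 0.10), Srebf2 (0.55 ± 0.09) and Scarb1 (-0.43 ± 0.09). Against DMSO cells 3 rose and 3 fell in resistant cells, led by the lysosomal cholesterol transporter Npc1 (-1.25 ± 0.20), Rxrb (1.04 ± 0.10), Osbpl5 (-0.70 ± 0.15) and Ncoa1 (0.56 ± 0.14). In the comparison of the rapamycin groups 3 were higher and 6 lower, led by Npc1 (-1.59 ± 0.20), Osbpl5 (-1.10 ± 0.15), Lpcat3 (-0.91 ± 0.08) and Rxrb (0.79 ± 0.10). Of 17 regulators of drug exporters 4 rose and 4 fell by rapamycin in sensitive cells, with the largest changes in Foxo3 (1.10 ± 0.21), Jun (-0.61 ± 0.14), Nfyc (-0.49 ± 0.09) and Foxo1 (0.49 ± 0.11). In the resistant cells 6 rose and 5 fell against DMSO cells, with the largest changes in Foxo3 (1.07 ± 0.21), Jun (-0.98 ± 0.14), Foxo1 (-0.82 ± 0.11) and Ahr (-0.69 ± 0.10). The comparison of the rapamycin groups had 7 higher and 5 lower, with the largest changes in Foxo1 (-1.31 ± 0.11), Ahr (-1.10 ± 0.10), Ybx1 (0.94 ± 0.09) and Nfyb (0.85 ± 0.09). The xenobiotic receptor gene Nr1i2 had 26.3 ± 10.5 in resistant cells, 20.5 ± 14.3 in sensitive rapamycin cells and 35.1 ± 23.6 in DMSO cells (SD, n = 3 each) and passed in none; it was named after its values were seen.

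A further list held drug transporters of the SLC families, the vault gene Mvp and Vps4a, which is neither. Of its 10 tested genes Mvp (0.89 ± 0.10) and Slc22a5 (0.41 ± 0.14) rose and Slc29a1 (-0.67 ± 0.10) fell by rapamycin in sensitive cells. Beside these stand 20.4% and 15.2%, 25.9% and 25.8%, and 26.4% and 30.1% of all genes higher and lower in the 3 comparisons. In resistant against DMSO cells 1 rose, the nucleoside transporter Slc29a2 (1.73 ± 0.38), and 3 fell, the major vault protein Mvp (-1.86 ± 0.10), Slco3a1 (-1.07 ± 0.16) and Vps4a (-0.73 ± 0.09). Slc29a2 averaged 116 in resistant, 15.9 in sensitive rapamycin and 24.0 in DMSO cells. With its sensitive signals at or near the filter limit of 22.2, it passed through its resistant arrays, so its calls in the resistant cells are descriptions only. Between the rapamycin groups 2 were higher and 4 lower, led by Mvp (-2.75 ± 0.10), Slc29a2 (2.16 ± 0.38), Slco3a1 (-0.79 ± 0.16) and Slc22a5 (-0.63 ± 0.14).

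Of 19 tested genes of drug metabolism 12 rose and 2 fell by rapamycin in sensitive cells, led by Cyp1b1 (1.39 ± 0.11), Gstt1 (1.12 ± 0.10), Gsto1 (-0.93 ± 0.12) and Cyp2j6 (0.80 ± 0.29). Of all genes 20.4% and 15.2%, 25.9% and 25.8%, and 26.4% and 30.1% were higher and lower in the 3 comparisons. The 5 rises in either comparison of the resistant cells are near these shares. In the resistant cells 5 rose and 10 fell against DMSO cells, led by Cyb5a (-2.43 ± 0.08), which encodes cytochrome b5, Mgst3 (-2.14 ± 0.11), Cyp1b1 (-1.62 ± 0.11) and the glutathione transferase gene Gsta4 (1.56 ± 0.10). Between the rapamycin groups 5 were higher and 9 lower, and Cyp1b1 led again, with 421, 359.9 and 308 in resistant cells, 3394, 2887 and 2749 in sensitive rapamycin cells and 1202, 1212 and 1006 in DMSO cells. It was followed there by Cyb5a (-2.65 ± 0.08), Mgst3 (-2.59 ± 0.11) and Gstt1 (-1.96 ± 0.10). Cytochromes of the 3A family metabolise rapamycin, and Cyp3a13 was the tested one, named after its values were seen. It had 16.3, 4.66 and 1.33 in resistant cells, 6.47, 37.7 and 74.1 in sensitive rapamycin cells and 49.6, 40.4 and 46.1 in DMSO cells. The resistant arrays lay below the filter limit of 22.2, and the DMSO arrays helped the gene pass it. Its call as lower in resistant than in DMSO cells (-1.44 ± 0.50, adjusted p = 0.0227) is therefore a description only. Between the rapamycin groups it did not pass (-1.08 ± 0.50, adjusted p = 0.0774), and the arrays overlapped.

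Of 8 tested peroxisomal partners of the ABCD genes 3 rose by rapamycin in sensitive cells and none fell, Hsd17b4 (0.51 ± 0.09), Pex19 (0.38 ± 0.14) and Scp2 (0.26 ± 0.08). All-gene shares, higher and lower, were again 20.4% and 15.2%, 25.9% and 25.8%, and 26.4% and 30.1% in the 3 comparisons. Against DMSO cells 1 rose and 4 fell in the resistant cells, led by the sterol carrier protein gene Scp2 (-0.74 ± 0.08), Pex14 (0.59 ± 0.14), Pex16 (-0.53 ± 0.15) and Hsd17b4 (-0.42 ± 0.09). Between the rapamycin groups 1 was higher and 5 were lower. Scp2 led there, averaging 1314 ± 80.2 in resistant cells and 2646 ± 194 in sensitive rapamycin cells (SD, n = 3 each; limma adjusted p = 6.42e-09), followed by Hsd17b4 (-0.93 ± 0.09), Acaa1a (-0.78 ± 0.28) and Pex16 (-0.72 ± 0.15).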

How the data were processed

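Total RNA was measured on 9 Affymetrix Mouse 430 2.0 arrays, with groups and replicate numbers read from each title. The deposited values are linear intensities per probe set, which the authors computed in GCOS 1.4 (per the submitters' processing notes); their summary method is not stated there. Each array's mean without the 2% of values at either end was 250, taken from the values. Detection calls and scan batches were not used here. Values were analysed as log2(signal + 16) with no further scaling, since their 75th percentiles differed by 0.17 between arrays. Of 45101 probe sets, 34945 had 1 symbol, 932 several and 9160 none, and 64 were controls. A gene's brightest probe set had to lie above the 40th percentile of mean signals (22.2), which left 12715 genes. They were fitted over all 9 arrays with limma 3.58.1 in R 4.3.3 (lmFit, eBayes with a variance trend), and p-values were adjusted over all genes (Benjamini-Hochberg, 0.05) within each of 3 comparisons. Single probe sets were taken from a second fit, over every probe set past that limit. The number of arrays limits the precision.

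Values on every array are given for members called with a change of at least 0.5 and groups that did not overlap, and for 10 fixed genes; of each further list of partners, the called genes with the largest changes were named, at most 4 per comparison. The members, lists, roles and settings were chosen with earlier results of these data known. Protein sequences were not used here. Alternatives covered the pseudocount, scaling, filter, probe set choice, variance trend, groups in the fit, replicate numbers and leaving out each array.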

Additional observations from a re-analysis of the deposited data

How the results depend on the processing

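The 6 counts of called ABC genes stayed within 1.5 times under the alternatives tried, with 2 exceptions. With all probe sets of a gene averaged 4 genes fell by rapamycin in sensitive cells, against 7, and with a filter at the 60th percentile 1 gene fell in resistant against DMSO cells, against 3; that filter left 20 ABC genes tested. Leaving out each array in turn gave 5 to 7 higher and 6 to 7 lower genes for rapamycin in sensitive cells. It gave 7 to 9 higher and 2 to 4 lower for resistant against DMSO cells, and 9 to 10 higher and 6 to 8 lower between the rapamycin groups. For 21 named members in 3 comparisons, 1093 of 1179 alternative values kept their sign and their side of the threshold, 44 lost the call and 19 gained it. A called change turned its sign once, for Abcf1 for rapamycin in sensitive cells, at 0.13 with its probe sets averaged, and the cause was not tested. A further 22 values changed sign with no call on either side. Centring on the 75th percentile moved the median change of all genes by 0.13 between the rapamycin groups and by 0.10 for resistant against DMSO cells, and neither scaling turned the sign of a called member. That centring gave 3776 higher and 2754 lower among all genes for resistant against DMSO cells, against 3299 and 3282, and 3892 and 3240 between the rapamycin groups, against 3353 and 3833. Arrays with the same replicate number did not deviate together (correlations of -0.08 to 0.02 over 9 pairs). The labels do not say whether such arrays were handled together, and these correlations cannot decide it. With the replicate number as a block, 7 and 7, 9 and 2, and 9 and 7 genes were called higher and lower in the 3 comparisons, and Abcg3 lost its call in resistant against DMSO cells (adjusted p = 0.0642). Signals near the filter limit, those of Abcb1a in the resistant cells among them, give only a limited change.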
